A study of Homo sapiens with 9 samples.

Results

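The RNA of 10 matrix metalloproteinase genes was followed in FaDu, a cell line established from a squamous carcinoma of the human hypopharynx. The genes were MMP1, MMP3, MMP7, MMP9, MMP10, MMP12, MMP13, MMP14, MMP2 and MMP28, taken by symbol as 10 of the 58735 genes in the count table. They were chosen by their differences between the groups of this series, measured in these same libraries, so their levels and differences are a description. No p is given for them, and where the fit over all genes is said to call a member, that call supports nothing. Bulk RNA sequencing had been done on 9 libraries, 3 biological replicates in each of 3 groups. Per the labels, the control group (NC_NC) held normal control cells. The second group (KD_NC) held cells with AMIGO2, a cell-surface adhesion protein, knocked down, and the third (KD_OE) held cells with AMIGO2 knocked down and CAPN2, the catalytic subunit of a calcium-dependent calpain protease, overexpressed. All groups shared the same line and growth medium, the label for treatment was none, and the labels do not say how the knockdown or the overexpression was made. By their labels, the comparisons set knockdown cells against control, and cells with added CAPN2 against both.

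Matrix metalloproteinases are zinc-dependent proteases that cut collagens, laminins, fibronectin and other proteins around cells. They are made as inactive proenzymes, become active once a prodomain is cut away, and are held in check by tissue inhibitors of metalloproteinases (TIMPs). In squamous carcinomas they are known for the breakdown of basement membrane and stroma at the invading edge, and many are controlled mainly at transcription.

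The labels were checked first. Levels are counts scaled to a common library size (CPM), adjusted between libraries by trimmed mean of M values (TMM). AMIGO2 stood at 29.5, 26.1 and 27.2 CPM in control replicates 1 to 3, at 24.5, 31.3 and 27.3 CPM in the libraries labelled knockdown, and at 42.8, 35.3 and 38.8 CPM in the libraries labelled knockdown plus CAPN2. AMIGO2 RNA was thus not lower in the libraries labelled knockdown (log2 fold change 0.01 with a 95% interval of -0.23 to 0.25), and libraries are called by their labels throughout. CAPN2 stood at 447, 474 and 466 CPM in control, at 395, 424 and 435 CPM with the knockdown label, and at 498, 498 and 500.2 CPM with the CAPN2 label. CAPN2 rose for the CAPN2 label against the knockdown label (log2 fold change 0.26 ± 0.0794 (SE), edgeR adjusted p = 0.0120), a call lost with no filter on low counts (0.22) and without CAPN2-label replicate 1 (0.23). Against control it was not called (0.11 ± 0.0794, edgeR adjusted p = 0.254), but was with upper-quartile scaling (0.21) and with only the 2 groups compared (0.12). All 9 squamous epithelium markers passed the count filter, with a summed level of 7921 to 8416 CPM in control, 4174 to 5259 CPM with the knockdown label and 4664 to 5255 CPM with the CAPN2 label. Most of the difference in this sum was the keratin KRT5, at 4437, 1207 and 1616 CPM in group means, while KRT17 was at 1860.1, 2099 and 1742 CPM. With the knockdown label against control, 6 of the 9 fell, beside 18.5% of all genes tested. The cadherin CDH1 was the 1 that rose (381 to 455 CPM), beside 16.0%. The call of CDH1 was lost without control replicate 1, 2 or 3 (log2 fold changes of 0.24, 0.25 and 0.27). Mitochondrial ribosomal RNA took 0.537% to 0.583% of counts in control, 0.877% to 1.08% with the knockdown label and 1.02% to 1.05% with the CAPN2 label. Its part in the results was not tested. Library totals ran from 15158607 to 19737562 counts.

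Of the 10 members, 6 lie in a cluster on chromosome 11 and 4 elsewhere. The cluster spanned 435 kb (GRCh38, chr11:102520508-102955734) and held 9 genes of the family, all on the minus strand, in the order MMP7, MMP20, MMP27, MMP8, MMP10, MMP1, MMP3, MMP12 and MMP13. MMP14 is on chromosome 14, MMP2 on chromosome 16, MMP28 on chromosome 17 and MMP9 on chromosome 20. MMP7 (ENSG00000137673), the matrilysin that lacks the hemopexin domain, has 6 exons and 267 residues, while the other 5 members of the cluster have 10 exons and 469 to 477 residues.

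Promoters are shown for members that lay in the cluster (MMP10 and MMP7) and for one that lay outside it (MMP14), because these are the 3 of 10 members matched by symbol in the RefSeq promoter table (GRCh38.p14). Each line gives the 200 bases that end at the annotated start, 5′ to 3′ on the strand of the gene, in lower case with matches to TGANTCA and to TATAAA in capitals.
MMP10, minus strand, chr11:102780629-102780828: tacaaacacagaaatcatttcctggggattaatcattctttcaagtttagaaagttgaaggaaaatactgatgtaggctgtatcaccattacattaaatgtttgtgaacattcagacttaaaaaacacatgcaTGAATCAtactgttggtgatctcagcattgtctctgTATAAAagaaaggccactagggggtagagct
MMP7, minus strand, chr11:102530748-102530947: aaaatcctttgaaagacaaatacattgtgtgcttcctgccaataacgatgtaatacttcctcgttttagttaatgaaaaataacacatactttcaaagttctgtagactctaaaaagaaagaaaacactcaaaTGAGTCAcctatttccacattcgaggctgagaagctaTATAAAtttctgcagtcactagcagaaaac
MMP14, plus strand, chr14:22836385-22836584: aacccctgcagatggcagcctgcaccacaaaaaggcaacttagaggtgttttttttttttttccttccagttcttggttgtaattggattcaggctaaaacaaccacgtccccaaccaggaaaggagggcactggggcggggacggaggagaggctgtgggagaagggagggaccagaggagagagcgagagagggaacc
The AP-1 letters TGANTCA were searched on both strands and the TATA letters TATAAA on the gene's own strand, over the 250 bases before each start. MMP10 held TGAATCA with its first base 67 bases before the start and TATAAA at 31 bases. MMP7 held TGAGTCA, also at 67 bases before the start, and TATAAA at 30 bases. Neither run of letters was found in this window of MMP14. The printed stretches had a GC content of 35.5% in MMP10, 33.5% in MMP7 and 53.5% in MMP14. Among 35116 promoters in the table, 6.57% held TGANTCA and 6.80% held TATAAA in the same window. The ETS letters AGGAAG, searched on both strands, matched MMP7 on the other strand at 169 and 145 bases before the start, and 28.7% of all promoters. None of these matches overlapped another, and a match of letters is not a binding site.

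In the libraries labelled knockdown, all 6 members of the cluster stood higher than in control, by 2.14-fold for MMP7 to 26.2-fold for MMP3. In the libraries labelled knockdown plus CAPN2 they stood near control again, apart from MMP3 and MMP12, which stayed above it. Of the members on other chromosomes, MMP2 and MMP9 were also highest with the knockdown label, and MMP14 and MMP28 were not.

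**Figure D1:**
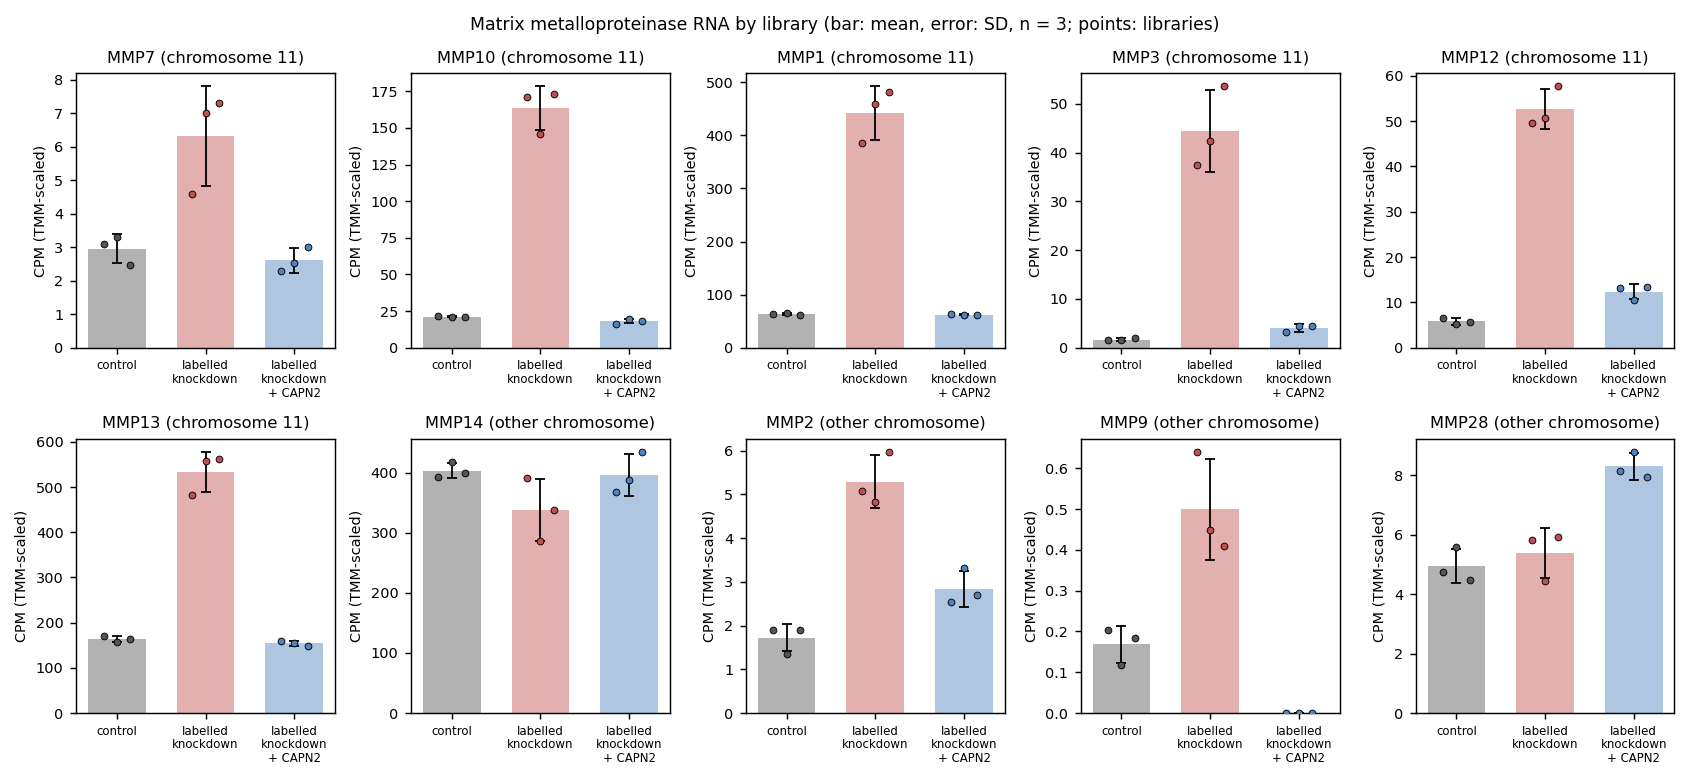
CPM (linear axes from 0) of the 10 members in each of the 9 libraries, as bars for the mean, error bars for the SD (n = 3) and points for libraries. The 6 members on chromosome 11, MMP2 and MMP9 are highest with the knockdown label, and MMP28 is highest with the CAPN2 label.

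The collagenases cut fibrillar collagen. MMP1 (ENSG00000196611, chr11:102789920-102798160), the interstitial collagenase, had 64.3, 66.3 and 62.3 CPM in control, 386, 459 and 482 CPM with the knockdown label, and 62.8, 62.4 and 61.1 CPM with the CAPN2 label. The lowest library labelled knockdown was thus far above every other library, while the control and CAPN2-label libraries overlapped. The log2 fold change of MMP1 was 2.78 ± 0.0962 (SE) with the knockdown label against control, a 6.88-fold difference, and -2.83 ± 0.0964 for the CAPN2 label against the knockdown label. Against control, the MMP1 difference with the CAPN2 label was -0.05, with a 95% interval of -0.25 to 0.14.

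MMP13 (ENSG00000137745, chr11:102942995-102955734), collagenase-3, had 171, 157 and 163 CPM in control, 482, 557 and 562 CPM with the knockdown label, and 159, 156 and 148 CPM with the CAPN2 label. It followed the course of MMP1 with smaller steps. Its log2 fold changes were 1.70 ± 0.0881 with the knockdown label against control, -1.79 ± 0.0884 for the CAPN2 label against the knockdown label, and -0.08 ± 0.0867 for the CAPN2 label against control. The last had a 95% interval of -0.26 to 0.10, and its sign turned to 0.02 with upper-quartile scaling, as that of MMP1 did to 0.05.

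The stromelysins cut proteoglycans, laminin and fibronectin and can activate other proenzymes of the family. MMP3 (ENSG00000149968, chr11:102835801-102843803), stromelysin-1, had 1.49, 1.65 and 1.91 CPM in control, 37.4, 42.3 and 53.6 CPM with the knockdown label, and 3.15, 4.37 and 4.53 CPM with the CAPN2 label. No group overlapped another, and the CAPN2-label libraries lay between the other groups, close to control. The log2 fold change of MMP3 against control was 4.71 ± 0.188 with the knockdown label, which ranked 7 by size among the 16812 genes tested. It was -3.46 ± 0.166 for the CAPN2 label against the knockdown label and 1.25 ± 0.224 for the CAPN2 label against control, a level 2.38-fold above control.

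MMP10 (ENSG00000166670, chr11:102770503-102780628), stromelysin-2, had 21.5, 20.7 and 21.3 CPM in control, 171, 146 and 173 CPM with the knockdown label, and 16.5, 19.5 and 18.4 CPM with the CAPN2 label. It differed from MMP3 in the last group, where every library was below the control libraries. Its log2 fold changes were 2.95 ± 0.104 with the knockdown label against control, -3.17 ± 0.106 for the CAPN2 label against the knockdown label, and -0.22 ± 0.107 for the CAPN2 label against control, the last with a 95% interval of -0.45 to 0.00.

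MMP12 (ENSG00000262406, chr11:102862736-102875034), the metalloelastase named for macrophages, had 6.56, 5.19 and 5.66 CPM in control, 49.6, 50.7 and 57.7 CPM with the knockdown label, and 13.2, 10.5 and 13.5 CPM with the CAPN2 label. The groups did not overlap, and the CAPN2 label left MMP12 2.14-fold above control. The log2 fold changes of MMP12 were 3.18 ± 0.137, -2.09 ± 0.125 and 1.09 ± 0.143 in the order given for MMP10. Macrophage and blood markers were summed to set beside it, and their CPM ran from 16.3 to 21.2 in control, 20.3 to 26.4 with the knockdown label and 7.28 to 12.1 with the CAPN2 label. Only CD14 and ITGAM of those 9 markers passed the count filter, and they went opposite ways. CD14, at 16.0, 22.5 and 7.33 CPM in group means, made up most of the sum, and ITGAM was at 1.84, 0.849 and 1.95 CPM, while the pan-leukocyte marker PTPRC averaged 0.0205, 0.0166 and 0.0401 CPM in control, with the knockdown label and with the CAPN2 label. In bulk RNA, more cells of a type and more RNA per cell cannot be told apart.

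MMP7 (chr11:102520508-102530753), at the far end of the cluster, had 3.11, 3.30 and 2.46 CPM in control, 4.60, 7.02 and 7.32 CPM with the knockdown label, and 2.28, 2.54 and 3.00 CPM with the CAPN2 label. Its lowest library labelled knockdown was still above all libraries of the other groups, which overlapped each other. The log2 fold changes of MMP7 were 1.09 ± 0.220, -1.28 ± 0.223 and -0.18 ± 0.240 in the same order. Replicate 1 was the lowest of the libraries labelled knockdown in MMP1, MMP3, MMP7, MMP12 and MMP13, but not in MMP10.

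The gelatinases cut denatured collagen and the type IV collagen of basement membranes. MMP2 (ENSG00000087245, chr16:55389700-55506691), gelatinase A, had 1.89, 1.36 and 1.91 CPM in control, 5.07, 4.83 and 5.98 CPM with the knockdown label, and 2.53, 3.31 and 2.69 CPM with the CAPN2 label. The groups did not overlap, and their order was that of MMP3 and MMP12. The log2 fold changes of MMP2 were 1.62 ± 0.228 with the knockdown label against control, -0.89 ± 0.213 for the CAPN2 label against the knockdown label and 0.73 ± 0.242 for the CAPN2 label against control. The last passed the threshold in the fit of all 9 libraries but not without control replicate 2 (0.57) or CAPN2-label replicate 2 (0.60).

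MMP9 (ENSG00000100985, chr20:46008908-46016561), gelatinase B, was the 1 member that did not pass the filter on low counts. It had 3, 2 and 3 counts in control, 11, 9 and 7 counts with the knockdown label, and 0 counts in each library with the CAPN2 label. The ratio of the pooled knockdown-label level to the pooled control level was 2.98, with a 95% counting interval of 1.32 to 7.60. The pooled level with the knockdown label was 0.497 CPM, with an exact 95% counting interval of 0.328 to 0.723. With the CAPN2 label a count of 0 over the group allows up to 0.0746 CPM by the same kind of interval. Intervals and limit cover counting error only, and 430 bases (18.4%) of MMP9 exon sequence lie across from the antisense gene SLC12A5-AS1, which had 0 to 4 counts in a library.

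MMP14 (ENSG00000157227, chr14:22836557-22849027), the membrane-type enzyme that activates proMMP2 at the cell surface, had 393, 418 and 399.5 CPM in control, 390.4, 287 and 338 CPM with the knockdown label, and 367, 388 and 435 CPM with the CAPN2 label. The libraries labelled knockdown were all below control, replicate 1 by a few CPM and the others by more, and the CAPN2-label libraries overlapped both groups. The log2 fold changes of MMP14 were -0.25 ± 0.103, 0.23 ± 0.103 and -0.02 ± 0.103, with 95% intervals of -0.47 to -0.04, 0.02 to 0.45 and -0.24 to 0.19. Without knockdown-label replicate 1 the first became -0.37 and the second 0.33, and both then passed the threshold. The second also passed it with upper-quartile scaling (0.29) and with correction for GC content and length (0.31). With that correction the first was -0.04 and was not called. The third turned sign with upper-quartile scaling, to 0.08, and with correction for GC content and length, to 0.27.

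MMP28 (ENSG00000271447, chr17:35756249-35795707), epilysin, a secreted enzyme of epithelia such as skin keratinocytes, had 4.74, 5.60 and 4.49 CPM in control, 5.83, 4.43 and 5.92 CPM with the knockdown label, and 8.15, 8.80 and 7.95 CPM with the CAPN2 label. It alone among the members was highest with the CAPN2 label, where every library was above all 6 others. The log2 fold changes of MMP28 were 0.12 ± 0.177, 0.63 ± 0.169 and 0.75 ± 0.172.

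**Figure D2:**
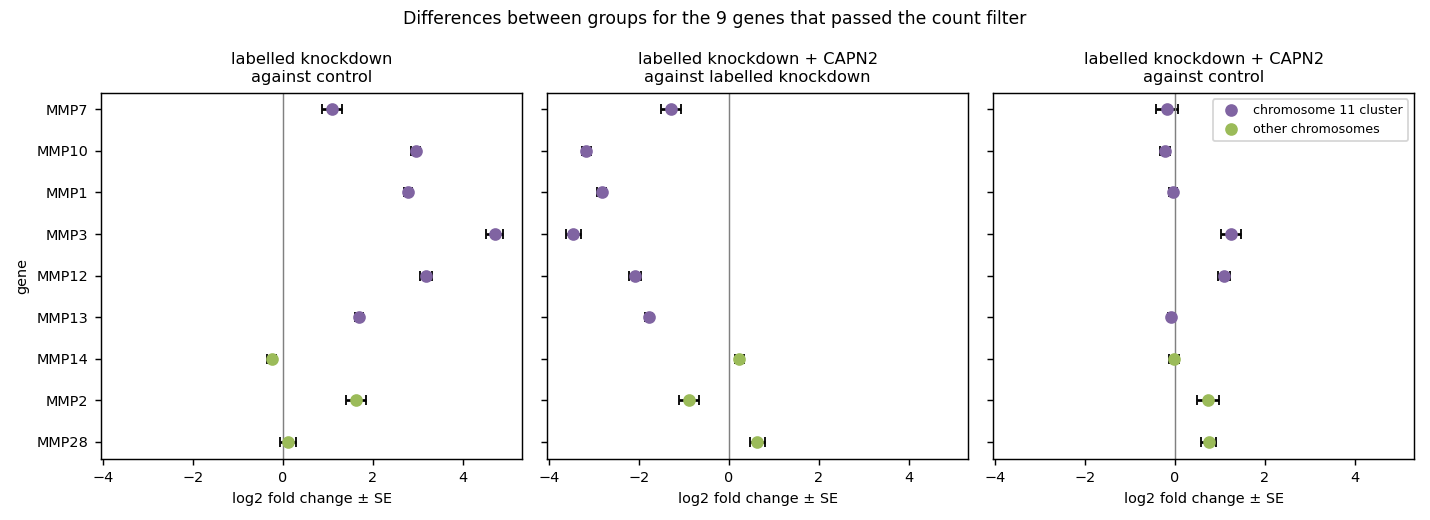
Log2 fold change with its SE (horizontal axis) of the 9 members that passed the count filter, in 3 comparisons, coloured by chromosome. The 6 cluster members lie between 1.09 and 4.71 in the first panel and between -3.46 and -1.28 in the second, and 4 of them lie between -0.22 and -0.05 in the third.

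Counted by the test over all genes (edgeR quasi-likelihood, adjusted p under 0.05), 7 of the 9 members tested were higher with the knockdown label than in control and 0 lower (1, MMP14, at an unadjusted p under 0.05, and 0 by DESeq2), beside 16.0% of all genes tested called higher and 18.5% called lower. The 7 were the cluster members and MMP2. For the CAPN2 label against the knockdown label, those 7 were lower, beside 25.6% of all genes tested, and MMP28 was higher, beside 23.7%. For the CAPN2 label against control, 4 were higher (MMP3, MMP12, MMP2 and MMP28), beside 27.9% of all genes tested, and 0 lower (0 at an unadjusted p under 0.05 and 0 by DESeq2), beside 28.4%. The libraries did not overlap for 8 of the 9 with the knockdown label against control (the 7 and MMP14), beside 44.7% of all genes tested. For the CAPN2 label they did not overlap for 8 of the 9 against the knockdown label, beside 54.0%, and for 5 of the 9 against control (the 4 and MMP10), beside 66.9%. The members were picked for such differences, so nothing is read from these shares. The median log2 fold change of the 6 cluster members was 2.86, -2.46 and -0.07 in the 3 comparisons. For the 3 tested members elsewhere it was 0.12, 0.23 and 0.73, and for all genes tested -0.01, 0.01 and 0.02. Each pair of comparisons shares the libraries of 1 group, so their values are set side by side without being related.

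Levels of different genes were compared per kilobase of gene length. In control, the order in CPM per kb was MMP14 (90.4 ± 2.93, SD, n = 3), MMP13 (57.8 ± 2.43), MMP1 (32.6 ± 1.01), MMP10 (12.0 ± 0.248), MMP12 (3.10 ± 0.373), MMP28 (1.73 ± 0.204), MMP7 (1.27 ± 0.190), MMP3 (0.821 ± 0.103), MMP2 (0.348 ± 0.0638) and MMP9 (0.0721 ± 0.0192), and no neighbours in that order overlapped. With the knockdown label MMP1 came first at 224 ± 25.5 CPM per kb and overlapped MMP13 at 188 ± 15.8. MMP10 at 93.0 ± 8.57 overlapped MMP14 at 75.8 ± 11.6, and MMP7 at 2.72 ± 0.642 overlapped MMP28 at 1.89 ± 0.292. MMP3 had moved from below MMP7 to 21.7 ± 4.06 CPM per kb, next after MMP12 at 28.1 ± 2.35. With the CAPN2 label the first 6 places were those of control, and MMP3 at 1.96 ± 0.369 stood above MMP7 at 1.12 ± 0.156.

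Summed over the members, the level was 200.2 ± 2.15 CPM per kb in control, 637 ± 40.1 with the knockdown label and 199 ± 6.30 with the CAPN2 label. The cluster made up 53.8% ± 1.33 of this sum in control, 87.5% ± 2.35 with the knockdown label and 53.5% ± 2.40 with the CAPN2 label. MMP14 alone gave 45.2% ± 1.30 of the sum in control and 12.0% ± 2.29 with the knockdown label, where MMP1 gave 35.2% ± 2.30 and MMP13 29.5% ± 1.48. The sum differed between control and the CAPN2 label by less than its spread, while with the CAPN2 label the shares of MMP12, MMP3 and MMP28, at 3.33% ± 0.442, 0.985% ± 0.163 and 1.46% ± 0.102, stood above their control shares of 1.55% ± 0.187, 0.411% ± 0.0554 and 0.863% ± 0.0941.

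**Figure D3:**
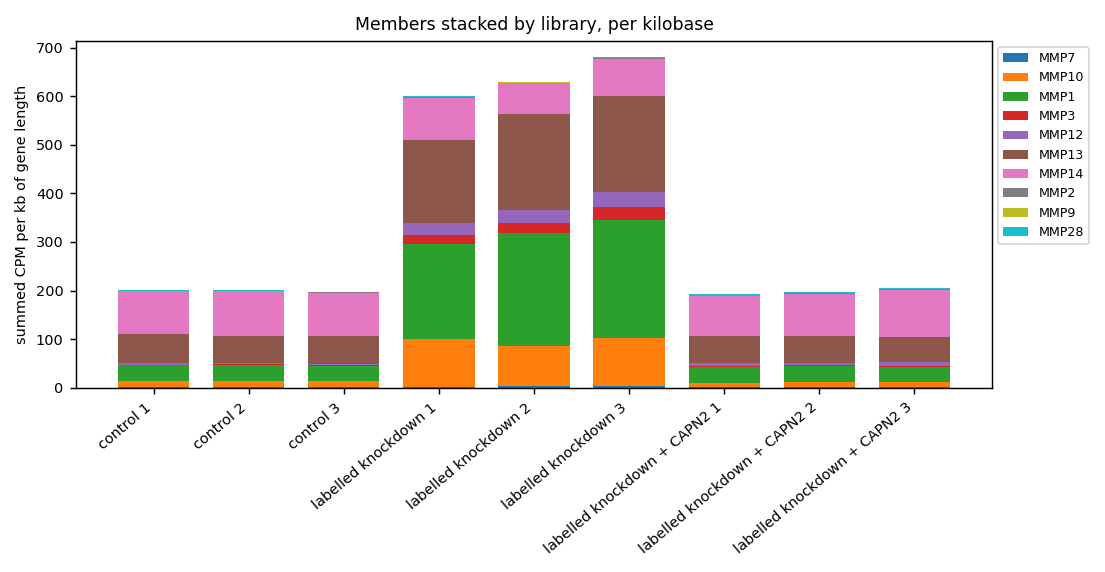
Stacked level of the 10 members in each library, in CPM per kb of gene length (linear axis from 0), 1 bar per library. The libraries labelled knockdown reach 601 to 680.2, and the other 6 libraries 193 to 205.

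The remaining family genes of the cluster had few counts: MMP8 had 0, 0 and 1 counts summed over the control, knockdown-label and CAPN2-label groups, MMP20 had 1, 8 and 0, and MMP27 had 0 in all. A count of 0 over a group allows up to 0.0768, 0.0679 and 0.0746 CPM in these groups (upper ends of exact 95% counting intervals). Within 2 Mb of the cluster lay 61 genes outside the family, of which 9 protein-coding genes were tested. With the knockdown label against control, 6 of these 9 rose, beside 16.0% of all genes tested, and 0 fell (edgeR; 1 lower at an unadjusted p under 0.05 and 0 by DESeq2). The log2 fold changes of all 9 ran from -0.43 to 0.95, beside 1.09 to 4.71 for the cluster members. TMEM123, the nearest on the MMP7 side, rose by 0.71 ± 0.100 (edgeR adjusted p = 2.58e-05), and DCUN1D5, the nearest on the MMP13 side, had -0.02 ± 0.103 (edgeR adjusted p = 0.885). Among the 6, BIRC3 (0.38) and ARHGAP42 (0.71) lost the call without control replicate 2 (0.31 and 0.58) and with correction for GC content and length (0.07 and 0.46). For the CAPN2 label against the knockdown label, where the cluster members were lower, 5 neighbours rose, beside 23.7% of all genes tested, and 1 fell, and the smallest rise, of YAP1 (0.20), lost the call in 11 of 16 alternatives. BIRC3, an inhibitor of apoptosis, rose by 1.31 ± 0.115 (edgeR adjusted p = 2.94e-08), DYNC2H1, a motor subunit of cilia, rose by 1.55 ± 0.154 (edgeR adjusted p = 3.52e-07), and DCUN1D5 fell by 0.59 ± 0.105 (edgeR adjusted p = 0.000116). Against control, 7 of the 9 neighbours rose with the CAPN2 label, beside 27.9% of all genes tested, and 1 fell, and BIRC3 reached 1.70 ± 0.118 (edgeR adjusted p = 7.70e-10).

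**Figure D4:**
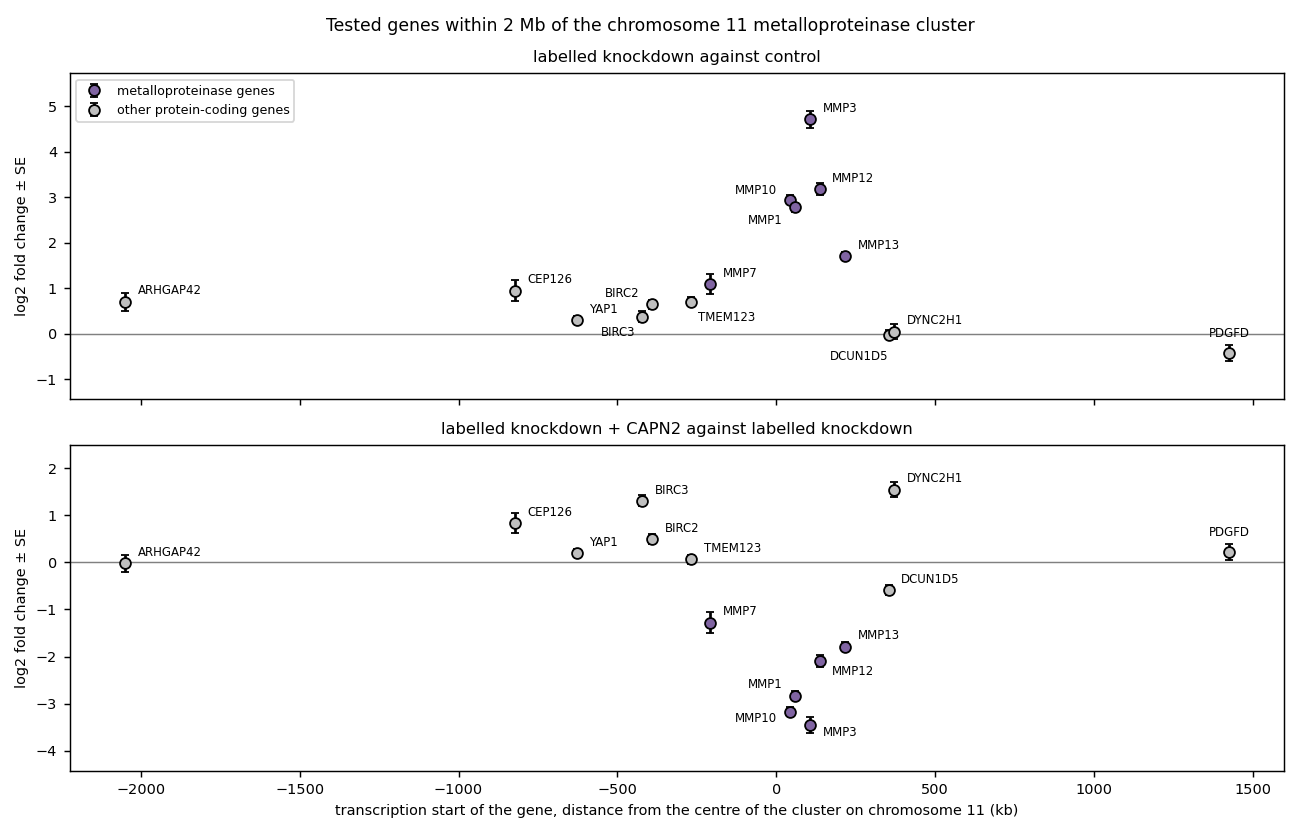
Log2 fold change with its SE (vertical axis) of the tested genes within 2 Mb of the cluster against the distance of their transcription start from the centre of the cluster (kb). In the lower panel the members lie between -3.46 and -1.28, and the neighbours between -0.59 and 1.55.

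Overlap with other genes was measured because reads can be counted for either. MMP1 shares 150 exonic bases (7.61%) and MMP3 shares 32 with WTAPP1 on the other strand, which had 5 to 22 counts in a library, against 950 or more for MMP1. MMP3 itself had 22, 28 and 31 counts in control, a number of the same order as that of WTAPP1. MMP3 and MMP10 share 59 runs of 50 bases, 2.88% of those of MMP3 and 3.36% of those of MMP10. The cluster members have a GC content of 38.9% to 44.8% (median 42.3%), against a median of 48.1% over the genes tested. The members on other chromosomes have 56.5% to 63.8% (median 60.6%), so these sets differ in GC content as well as in place. Across 16802 genes, which are not independent, the log2 fold change of the knockdown label against control fell with GC content (Spearman's rho = -0.363), and rho was -0.083 for the CAPN2 label against the knockdown label and -0.287 for the CAPN2 label against control. With GC content and length corrected for, the median of the cluster members was 2.71 in the first of these comparisons (0.88 to 4.59) and -2.40 in the second (-3.34 to -1.19). MMP2, MMP14 and MMP28 had 1.81, -0.04 and 0.38 in the first and -0.83, 0.31 and 0.73 in the second. MMP10 and MMP13, for the CAPN2 label against control, then passed the threshold as lower (-0.28 and -0.30).

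The other family genes are those left after the members had been chosen by their differences, so they are not an unselected comparison. Earlier results of these data were known when the list was drawn up. Of 13, 6 passed the count filter. With the knockdown label 0 fell (edgeR, and 0 at an unadjusted p under 0.05 and 0 by DESeq2), beside 18.5% of all genes tested. In the same comparison 1 of the 6 rose, beside 16.0% of all genes tested. That was MMP17, a membrane-anchored family member, which had 10.8, 11.6 and 10.4 CPM in control, 20.8, 15.5 and 19.0 CPM with the knockdown label and 13.1, 18.7 and 20.1 CPM with the CAPN2 label. It rose by 0.75 ± 0.156 with the knockdown label (edgeR adjusted p = 0.00105) and was also higher than control with the CAPN2 label (0.66 ± 0.158, edgeR adjusted p = 0.00138). Its labelled groups overlapped, with a difference of -0.09 and a 95% interval of -0.40 to 0.23.

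MMP15, another membrane-type enzyme, had 81.3, 88.5 and 85.9 CPM in control, 94.6, 87.7 and 87.5 CPM with the knockdown label, and 43.5, 41.3 and 51.8 CPM with the CAPN2 label. It fell by 0.98 ± 0.0983 for the CAPN2 label against the knockdown label (edgeR adjusted p = 1.64e-07) and by 0.91 ± 0.0985 against control (edgeR adjusted p = 2.59e-07). With GC content and length corrected for, MMP15 fell by 0.52 against control with the CAPN2 label and was called higher with the knockdown label, at 0.39. MMP19 averaged 0.270, 0.435 and 1.03 CPM in the 3 groups and rose by 1.90 ± 0.516 against control with the CAPN2 label (edgeR adjusted p = 0.00408). Its rise of 1.21 against the knockdown label (edgeR adjusted p = 0.0378) lost the call in 9 of 15 alternatives. MMP11, MMP16 and MMP24, at 0.403 to 1.94 CPM in group means, were not called in any comparison, but without control replicate 1 both MMP16 and MMP24 passed the threshold against control. MMP16 then had 1.47 with the knockdown label and 1.59 with the CAPN2 label in place of 0.77 and 0.90, and MMP24 had 1.74 and 1.32 in place of 1.06 and 0.64. MMP24 also passed it with the knockdown label after correction for GC content and length (1.30). MMP25 had 10, 11 and 32 counts summed over the groups, and MMP26 had 0 throughout.

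TIMP1 and TIMP2 RNA, like the cluster members, was highest with the knockdown label, and TIMP3 RNA was highest with the CAPN2 label. TIMP1 had 26.1, 23.3 and 26.6 CPM in control, 42.8, 42.2 and 54.4 CPM with the knockdown label, and 15.3, 12.0 and 15.4 CPM with the CAPN2 label. It rose by 0.88 ± 0.124 with the knockdown label (edgeR adjusted p = 2.69e-05) and fell by 1.71 ± 0.130 for the CAPN2 label against the knockdown label (edgeR adjusted p = 4.50e-09). It ended below control, by -0.83 ± 0.132 (edgeR adjusted p = 2.45e-05).

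TIMP2, which also takes part in the activation of proMMP2 by MMP14, had 4.94, 5.95 and 5.11 CPM in control, 15.3, 16.4 and 18.0 CPM with the knockdown label, and 4.44, 3.90 and 3.98 CPM with the CAPN2 label. It rose by 1.63 ± 0.146 (edgeR adjusted p = 1.08e-07) and fell by 2.01 ± 0.150 (edgeR adjusted p = 3.58e-09) in the same comparisons. Against control with the CAPN2 label it had -0.38 ± 0.163 (edgeR adjusted p = 0.0542), which passed the threshold without knockdown-label replicate 1 or 3 (-0.39 in each).

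TIMP3, the inhibitor bound to the matrix, had 3.38, 3.42 and 3.57 CPM in control, 5.88, 4.33 and 6.15 CPM with the knockdown label, and 10.3, 9.21 and 9.06 CPM with the CAPN2 label. Its groups did not overlap. It rose in all 3 comparisons, by 0.65 ± 0.184 with the knockdown label against control (edgeR adjusted p = 0.00979), by 0.81 ± 0.168 for the CAPN2 label against the knockdown label (edgeR adjusted p = 0.000549) and by 1.46 ± 0.178 for the CAPN2 label against control (edgeR adjusted p = 1.12e-06). RECK, a membrane-anchored inhibitor, was called only for the CAPN2 label against control (0.67 ± 0.249, edgeR adjusted p = 0.0283), a call lost in 5 of 16 alternatives. TIMP4, at 0.977 to 1.45 CPM in group means, was not called in any comparison.

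**Figure D5:**
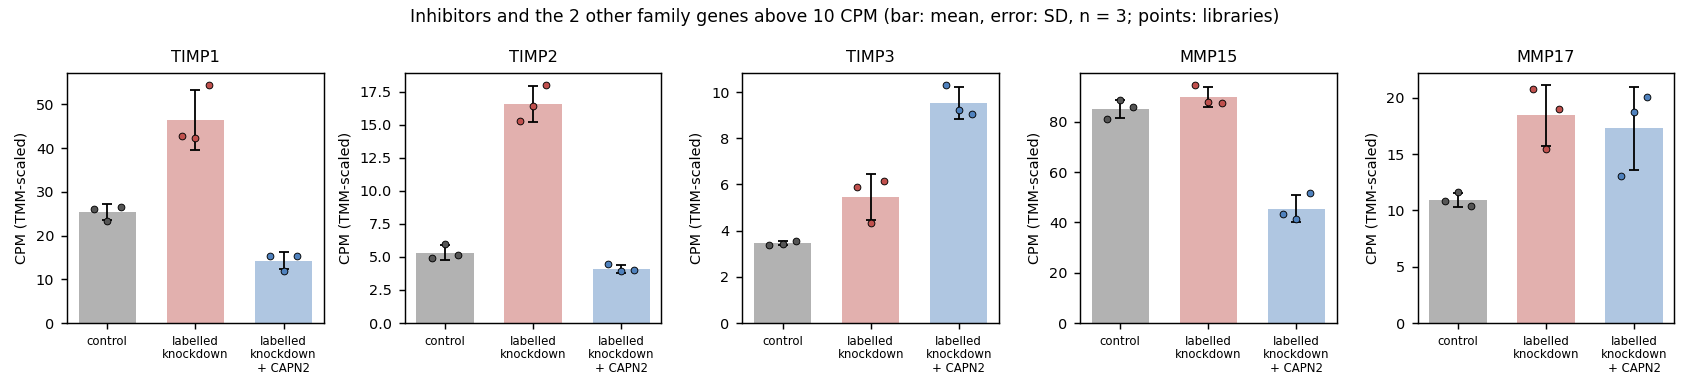
CPM (linear axes from 0) of TIMP1, TIMP2, TIMP3, MMP15 and MMP17 in each library, as bars for the mean, error bars for the SD (n = 3) and points for libraries. TIMP1 and TIMP2 are highest with the knockdown label, and TIMP3 is highest and MMP15 lowest with the CAPN2 label.

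Genes that activate or dock the proteases were mixed. Of 12 tested, 5 rose and 3 fell with the knockdown label, beside 34.6% of all genes tested called in either direction. PLAU, the urokinase that generates plasmin, rose by 0.83 ± 0.0863 (edgeR adjusted p = 7.64e-07), its receptor PLAUR by 1.11 ± 0.145 (edgeR adjusted p = 1.17e-05) and the proprotein convertase PCSK5 by 1.01 ± 0.146 (edgeR adjusted p = 3.23e-05). LCN2, which binds MMP9 protein, fell by 0.49 ± 0.118 (edgeR adjusted p = 0.00332). FURIN, the convertase that cuts proMMP14, had -0.28 ± 0.0977 (edgeR adjusted p = 0.0320) and the surface glycoprotein BSG, an inducer of metalloproteinases, -0.26 ± 0.0919 (edgeR adjusted p = 0.0347), but with GC content and length corrected for these were -0.02 and -0.01 and not called. The calls were lost in 12 and 11 of 16 alternatives.

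For the CAPN2 label against the knockdown label, 2 of these genes rose and 7 fell, beside 49.2% of all genes tested called. PLAUR fell by 1.35 ± 0.147 (edgeR adjusted p = 4.73e-07), CD44, a docking site for MMP9, by 1.05 ± 0.0793 (edgeR adjusted p = 4.21e-09) and the plasminogen activator PLAT by 1.78 ± 0.106 (edgeR adjusted p = 1.68e-10). PLAU rose further, by 0.76 ± 0.0858 (edgeR adjusted p = 7.69e-07), and LCN2 rose by 1.72 ± 0.119 (edgeR adjusted p = 1.29e-09). PLAU thus stood at 249 ± 18.5, 443 ± 29.2 and 748 ± 16.0 CPM in the 3 groups (SD, n = 3). Against control, 3 rose and 6 fell with the CAPN2 label, beside 56.3% of all genes tested called.

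Among substrates, 8 of 13 tested rose and 1 fell with the knockdown label, beside 16.0% and 18.5% of all genes tested. Of the 8, CDH1, COL1A1 and COL4A2 lost the call in some of the fits with 1 library left out. Tenascin C (TNC) rose by 1.87 ± 0.133 (edgeR adjusted p = 5.05e-09) and fibronectin (FN1) by 1.48 ± 0.136 (edgeR adjusted p = 1.46e-07), while the anchoring fibril collagen COL7A1 fell by 0.64 ± 0.0968 (edgeR adjusted p = 5.33e-05). For the CAPN2 label against the knockdown label, 3 rose and 5 fell, beside 23.7% and 25.6%. COL7A1 rose by 2.19 ± 0.0988 (edgeR adjusted p = 6.16e-12), and the thrombin receptor F2R, which MMP1 can cut, fell by 1.82 ± 0.133 (edgeR adjusted p = 2.69e-09) after a rise of 1.36 ± 0.130 with the knockdown label (edgeR adjusted p = 2.59e-07). Of the 5 that fell, FN1 lost the call in 9 of 16 alternatives. Against control, 7 rose and 2 fell with the CAPN2 label, beside 27.9% and 28.4%. COL1A2, COL3A1 and ELN did not pass the count filter.

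Among 23 inducers and transcription factors, all tested, 10 rose and 5 fell with the knockdown label, 7 rose and 11 fell for the CAPN2 label against the knockdown label, and 10 rose and 6 fell for the CAPN2 label against control. These counts stand beside 34.6%, 49.2% and 56.3% of all genes tested called in either direction. In the first comparison RELA, among the 5 that fell, lost the call in several alternatives, such as correction for GC content and length (-0.07). In the second comparison the calls of JUNB, IL1B and OSMR were lost in 12, 10 and 7 of 16 alternatives. Those of ETS2, JUN and FOSB were lost there in fewer. Ligands of the epidermal growth factor receptor rose with the knockdown label: AREG by 1.46 ± 0.104 (edgeR adjusted p = 5.05e-09), HBEGF by 1.31 ± 0.107 (edgeR adjusted p = 2.88e-08) and TGFA by 1.02 ± 0.0914 (edgeR adjusted p = 1.16e-07), while the receptor EGFR fell by 0.54 ± 0.107 (edgeR adjusted p = 0.000664). With the CAPN2 label, TGFA fell from the knockdown-label level by 1.11 ± 0.0916 (edgeR adjusted p = 1.47e-08) and AREG by 0.58 ± 0.101 (edgeR adjusted p = 9.83e-05), whereas HBEGF had 0.04 ± 0.101 with a 95% interval of -0.17 to 0.26. The cytokine gene IL1A rose against the knockdown label by 1.58 ± 0.111 (edgeR adjusted p = 1.42e-09), opposite in direction to the cluster members there.

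Of the 7 Fos and Jun genes on that list, whose proteins bind AP-1 letters, JUN was the 1 called with the knockdown label, at 0.54 ± 0.0984 (edgeR adjusted p = 0.000332). In that comparison 34.6% of all genes tested were called in either direction. Group means of JUN were 90.9, 132 and 161 CPM in control, with the knockdown label and with the CAPN2 label. JUN was thus highest with the CAPN2 label, unlike the cluster members. JUN is named here after its value was seen. JUND had 0.32 ± 0.132 (edgeR adjusted p = 0.0694) and was called in 4 of 16 alternatives, and FOSL1 had -0.03 ± 0.130 with a 95% interval of -0.30 to 0.25. For the CAPN2 label against the knockdown label, group means fell in FOS, FOSB, FOSL1 and JUND and rose in FOSL2, JUN and JUNB. FOSL1 went from 239 to 153 CPM and JUND from 82.7 to 53.1 CPM, both called lower in all 16 alternatives. The rise of JUN there lost its call in some alternatives.

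Genes with the most similar course were sought among 10358 protein-coding genes outside the family with a mean of at least 5 CPM, by Pearson's r of log2 CPM over the 9 libraries. The 9 libraries form 3 groups, so r mainly carries the 3 group levels and is given with no test. MMP1 was most like TGFA (r = 0.995) and CNN3 (r = 0.993), and MMP10 was most like CNN3 (r = 0.995) and TGFA (r = 0.991). MMP13 was also most like TGFA (r = 0.993). Among the nearest genes of MMP3 was VEGFC (r = 0.992), and MMP12 was most like DIO2 (r = 0.993) and SRPX2 (r = 0.992). MMP2 was most like DSE (r = 0.990). For MMP7, MMP14 and MMP28 the nearest genes were WRB (r = 0.978), LZTS2 (r = 0.978) and MAP2K5 (r = 0.974), and no candidate exceeded 0.98.

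Markers of other cell types were set beside the members. The summed level of 7 endothelial markers was 18.3 to 23.7 CPM in control, 45.5 to 51.6 CPM with the knockdown label and 16.8 to 18.2 CPM with the CAPN2 label, highest with the knockdown label as the cluster members were. Most of it was CDH5, the endothelial cadherin, at 14.8 ± 2.40, 43.2 ± 2.93 and 13.7 ± 0.482 CPM (SD, n = 3). VWF moved the other way with the knockdown label, from 5.67 ± 0.564 to 2.44 ± 0.354 CPM. KDR was at 0 in all libraries, and PECAM1 was at most 0.150 CPM in group means. Fibroblast markers summed to 8.25 to 9.78, 11.1 to 14.2 and 13.5 to 15.6 CPM, of which COL1A1 was the 1 of 9 to pass the count filter, with LUM and PDGFRA at 0. The part of these markers in the results was not tested.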

How the data were processed

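RNA of 9 FaDu cultures was sequenced, from TRIzol extracts and NEBNext Ultra libraries per the labels' protocols. The authors deposited raw counts of reads per gene, as whole numbers for 58735 genes. The build hg19 and the tools featureCounts 1.5.0-p3, HISAT2 2.0.5 and StringTie 1.3.3b come from the submitters' processing notes, which give no roles. The deposited coordinates matched GENCODE v29 on GRCh38 for 58735 of 58735 identifiers, so positions are on GRCh38. The strand setting and the handling of reads matching several genes were not given in the sources used here, so reads of a gene and of an antisense partner could not be told apart.

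The analysis used edgeR 4.0.16 under R 4.3.3. Genes were kept by filterByExpr (minimum 10 counts), leaving 16812. Libraries were scaled by TMM. All 9 libraries entered 1 quasi-likelihood model with a coefficient for each group and robust dispersion (6 residual degrees of freedom). Each of the 3 contrasts got an F test, Benjamini-Hochberg adjusted over all genes, with calls at an adjusted p under 0.05. The SE was derived from the log2 fold change and its F value. The labels say biological replicates of 1 cell line, and p-values measure the spread between these libraries. At the depths of 15158607 to 19737562 counts, 3 counts were 0.149 to 0.203 CPM. Intervals from counts are exact at 95%, for counting error only. The steps were tested on simulated data.

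The members and gene lists were chosen with earlier results of these data known. All members, tested family genes and inhibitors were named. Of the other lists the rule took up to 3 risen and 3 fallen genes with the lowest adjusted p per contrast, and of the neighbours any tested protein-coding gene. Likeness took the 3 nearest genes. Some genes that these rules name are not reported here. Alternatives were upper-quartile scaling, DESeq2 1.42.0, no filter, a mean of at least 1 CPM, only the 2 groups compared, a replicate block, correction for GC content and length, and each library left out. Replicate numbers were not taken to pair the libraries: deviations of same-numbered libraries correlated from -0.111 to 0.063 over 9 pairs. Those of differently numbered libraries of 2 groups correlated from -0.186 to 0.132 over 18 pairs.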

Additional observations from a re-analysis of the deposited data

How the results depend on the processing

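Over 16 alternatives per comparison, the 9 tested members gave 432 values, of which 423 kept their side of the threshold, with the same direction where called, 6 newly passed it, 2 no longer passed it and 1 reversed. The members were chosen by these differences, so these counts are a description. With correction for GC content and length, 7 members were called for the CAPN2 label against control (5 higher, 2 lower) in place of 4. MMP10 and MMP13 were then lower (-0.28 and -0.30) and MMP14 reversed from -0.02 to 0.27. BSG and JUND, called lower in that comparison, reversed to 0.03 and 0.07 and were not called. The cause was not tested. Upper-quartile scaling moved the median of all genes in that comparison from 0.02 to 0.13. With each library left out, members called numbered 7 to 8, 8 to 9 and 3 to 4 in the 3 comparisons, against 7, 8 and 4. For the genes of the other lists and the neighbours, 3117 values kept the side of the threshold, 56 newly passed it, 166 no longer passed it and 2 reversed.

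With the replicate block, 5376, 7912 and 9149 genes were called in the 3 comparisons, against 5812, 8278 and 9468 without it, and members called stayed at 7, 8 and 4. Among family genes and inhibitors the block ended 1 call, MMP19 for the CAPN2 label against the knockdown label (edgeR adjusted p = 0.0544, with a range of 0.0225 to 0.168 over its alternatives). The numbers were not taken as pairing, since 0 of 9 same-numbered pairs correlated over 0.1, beside 2 of 18 differently numbered pairs.

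Depth limits MMP9 and the family genes with few counts. With 3 libraries a group, fold changes of genes under about 1 CPM such as MMP11 have wide intervals (-2.03 to 0.54 with the knockdown label against control).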
